A study of Xenopus laevis with 8 samples.

Results

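The uninjected sides of double morphants were set against the uninjected sides of control morphants in neurula stage embryos of the frog Xenopus laevis. The comparison takes 4 of the 8 arrays of the series, 2 of uninjected sides of double morphants and 2 of uninjected sides of control morphants, chosen by their labels and matched by replicate number. Morpholinos are antisense oligonucleotides that block translation of the mRNA they pair with. Double morphants had received morpholinos against both Suv4-20h1 and Suv4-20h2, the enzymes that add the higher methylation states to a lysine in the tail of histone H4, and control morphants an unrelated control morpholino, in each case on 1 side of the embryo only. The remaining 4 arrays hold the injected sides of the same pools. After the embryos had been cut along the midline, sides of several embryos were pooled for each RNA sample, so that an array describes a pool and not an embryo, and the replicates come from independent experiments. The labels and the study's methods differ on the dose and on the blastomeres injected. Neither group of uninjected sides was itself given a morpholino. What separates them is the pool of embryos they came from and anything that reached them from the injected side, and these cannot be told apart in this design.

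At the neurula stage the neural plate rises and folds on the dorsal side, while the epidermis around it already holds scattered multiciliated cells and ionocytes. Multiciliated cells build motile cilia on an axoneme of microtubules and dyneins. Ionocytes pump protons and exchange anions with the help of the V-ATPase, carbonic anhydrases and the pendrin anion exchanger. The mesoderm is patterned along its axis at the same time, with Wnt, caudal and T-box genes active in its posterior and ventral part. All of these tissues lie on both sides of the midline and were included in each pool.

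Markers of all germ layers were present on the 4 arrays of uninjected sides. The neural plate gene sox2.L lay at 11.14 and 11.36 (log2 scale) in double morphants and at 11.51 and 11.61 in control morphants, and the muscle actin gene actc1.L at 13.34 and 13.29 in double and 13.27 and 13.07 in control morphants. The epidermal keratin krt12.4.L lay between 13.18 and 13.87 on these arrays and the endodermal gene a2m.S between 13.46 and 13.71. Only the basal epidermal factor tp63 was dim, at 3.32 to 4.83 over both of its copies. In bulk tissue, fewer cells of a type and less RNA per cell cannot be told apart, which holds for every gene below. The suffixes .L and .S name the 2 homeologs of a gene, the copies on the long and the short chromosomes of this tetraploid frog.

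Across the 8219 genes tested, arrays of the same replicate number were the most alike. The double and the control array of replicate 1 differed by over 1 log2 unit in 135 genes (1.64%) and those of replicate 2 in 338 genes (4.11%). The 2 double arrays differed that much from each other in 604 genes (7.35%) and the 2 control arrays in 666 genes (8.1%). Double minus control differences had an SD across genes of 0.36 in replicate 1 and 0.47 in replicate 2. Across genes the differences of the replicates were correlated with r = 0.32, where genes are not independent replicates, against r = 0.68 for the same quantity in injected sides.

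Which genes distinguished uninjected sides of double from those of control morphants was asked with a linear model in limma, and a gene was called at a local false discovery rate under 0.2, the threshold the study's methods name. The model did not use the replicate number, so differences between replicates went into the SE. The rule called 117 genes higher (1.42% of those tested) and 86 genes lower (1.05%) in double morphants. All 203 called genes had the same direction in both replicates, and in all of them the 2 double arrays did not overlap the 2 control arrays. Over all genes, 26.6% were higher and 31.8% lower in both replicates, and the groups did not overlap in 27.1%. A call favours a large difference over a small spread in these same values, so the agreement among called genes is no separate support. The called increases had a median of 0.82 log2 units and ran from 0.37 to 3.44, and the called decreases had a median of -0.67 and reached -2.25. The threshold is lenient with 2 arrays a group. On simulated arrays of this design, most calls by it fell on genes for which no difference had been set. That share depends on how many differences were set and on their size, so it is not the share of false calls among the 203. No gene had a Benjamini-Hochberg adjusted p under 0.05 in limma, the smallest being 0.999963. An unadjusted p under 0.05 was reached by 128 higher (1.56%) and 125 lower genes (1.52%). Together these are fewer genes than that threshold would pass if no gene differed. With the replicate number as a block in limma, 937 genes (11.4%) reached it. Read on z values, which allow for the few degrees of freedom of the moderated statistic, the same rule kept 25 genes higher (0.304%) and 0 lower, and genes below are said to pass on z values where they are among these 25. To be tested, a gene had to reach a mean of 4 in at least 1 of the 4 groups. Of the 117 genes called higher, 19 reached it only in uninjected sides of double morphants, 6 of them among the 25, and of the 86 called lower 1 reached it only in uninjected sides of control morphants. Such genes entered through the group where they were high and had to differ, so their values are given below as a description. Nearest the threshold, slc25a26.L (difference -1.01, local false discovery rate 0.197) was among the last genes inside and cdx2.L (difference -0.47, local false discovery rate 0.201) was the first outside.

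**Figure D1:**
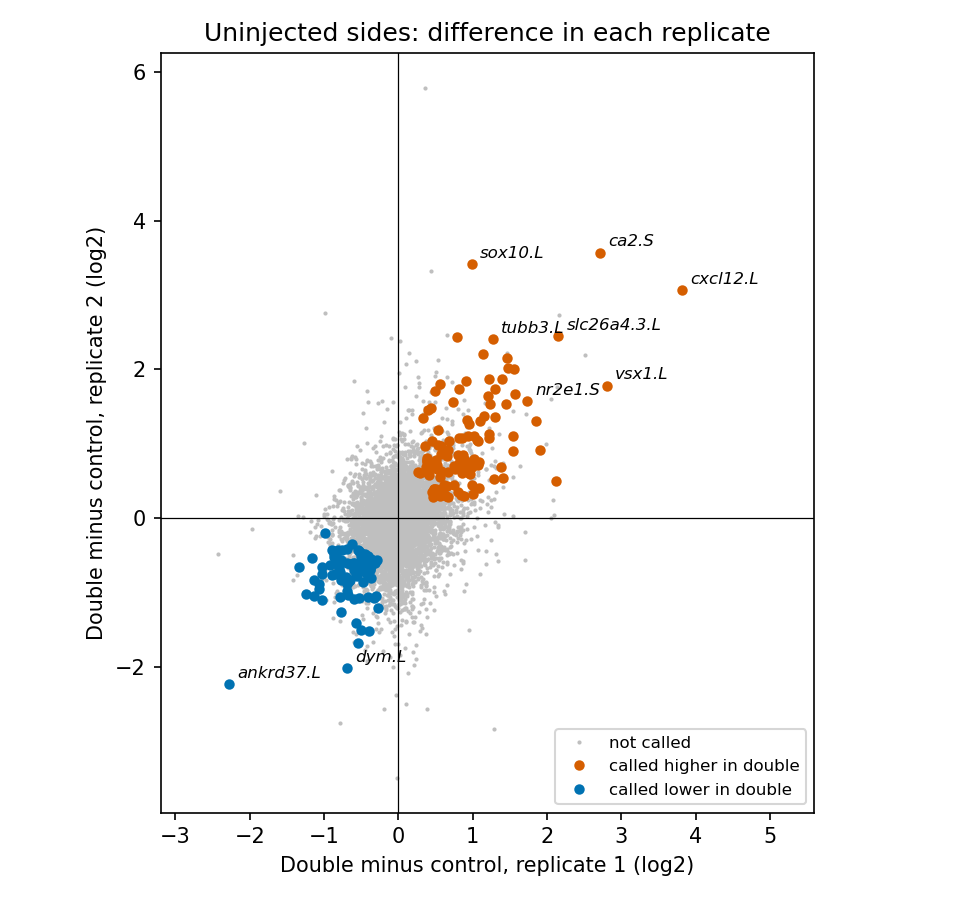
Double minus control difference (log2) in uninjected sides for each of 8219 genes, replicate 1 on the x axis and replicate 2 on the y axis. The 117 genes called higher lie in the upper right and the 86 called lower in the lower left. cxcl12.L (3.81 and 3.06) and ca2.S (2.71 and 3.57) lie far to the upper right and ankrd37.L (-2.28 and -2.23) to the lower left.

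Among the called increases were genes of the carbonic anhydrase, pendrin and V-ATPase families. Of 6 carbonic anhydrase genes tested, 3 were called higher and 0 lower, against 1.42% and 1.05% of all genes. ca2.S, 1 of 2 copies of the cytosolic carbonic anhydrase that makes bicarbonate and protons from carbon dioxide, stood at 7.26 and 6.47 in the uninjected sides of double morphants, against 4.55 and 2.90 in those of control morphants. Both double arrays lay well above both control arrays, a difference of 3.14 ± 0.63 log2 units (SE, n = 2 each) that passed on z values (local false discovery rate 0.0860). Its homeolog ca2.L had 8.64 and 8.04 in double and 7.1 and 6.94 in control morphants, a difference of 1.32 ± 0.29 that also passed on z values. The third called member of the family, ca12.L, a membrane-bound carbonic anhydrase, differed by 0.97 ± 0.30.

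The pendrin gene slc26a4.3, which encodes an exchanger of chloride for bicarbonate, was called higher in both homeologs. These were the 2 calls among 4 tested genes of its family, where 1.42% of all genes were called higher. Over all 152 solute carrier genes, which include this family, 4 were called higher and 3 lower, with a median of 0.0007. slc26a4.3.L had 8.19 and 7.67 in double morphants, against 6.03 and 5.23 in control morphants, a difference of 2.30 ± 0.37. slc26a4.3.S had 9.28 and 8.55 in double and 7.43 and 7.24 in control morphants, a difference of 1.58 ± 0.39. For both copies the double arrays lay above the control arrays in either replicate, and both passed on z values.

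The V-ATPase, the proton pump of acid-secreting cells, followed. Of 25 genes of its subunits and accessory proteins that were tested, 7 were called higher and 0 lower, against 1.42% and 1.05% of all genes, with a median difference of 0.47 over the 25, against -0.026 over all genes. The subunits that acid-secreting cells of the mammalian kidney use in place of the general ones were prominent among the 7. atp6v0d2.L had 8.82 and 8.99 in double and 7.52 and 7.25 in control morphants (difference 1.52 ± 0.31), and atp6v0a4.L had 7.57 and 7.39 in double and 6.35 and 5.52 in control morphants (difference 1.55 ± 0.39). atp6v1g3.L had 9.74 and 9.94 in double and 8.66 and 8.91 in control morphants (difference 1.06 ± 0.21). These passed on z values, with the groups apart by more than the replicates of either group. The remaining called members, atp6v1b1.L (1.27 ± 0.44), atp6ap1.1.L (1.22 ± 0.42), atp6ap2.S (0.60 ± 0.23) and atp6v1d.S (0.57 ± 0.19), did not pass on z values. The 18 members not called ran from -0.50 for atp6v1h.L to 0.76 for atp6v1f.L, with -0.09 for the catalytic subunit gene atp6v1a.L. The list of multiciliated cell and ionocyte markers, which shares several of these genes, had 6 of 33 members called higher, 0 lower and a median of 0.21, and 2 members called without control replicate 1. The V-ATPase family, like the carbonic anhydrase, pendrin, solute carrier and axonemal families, was defined by symbol and chosen after values had been seen. Leaving out control replicate 1 reduced its 7 calls to 2 and leaving out control replicate 2 to 3, with medians of 0.48 and 0.23.

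**Figure D2:**
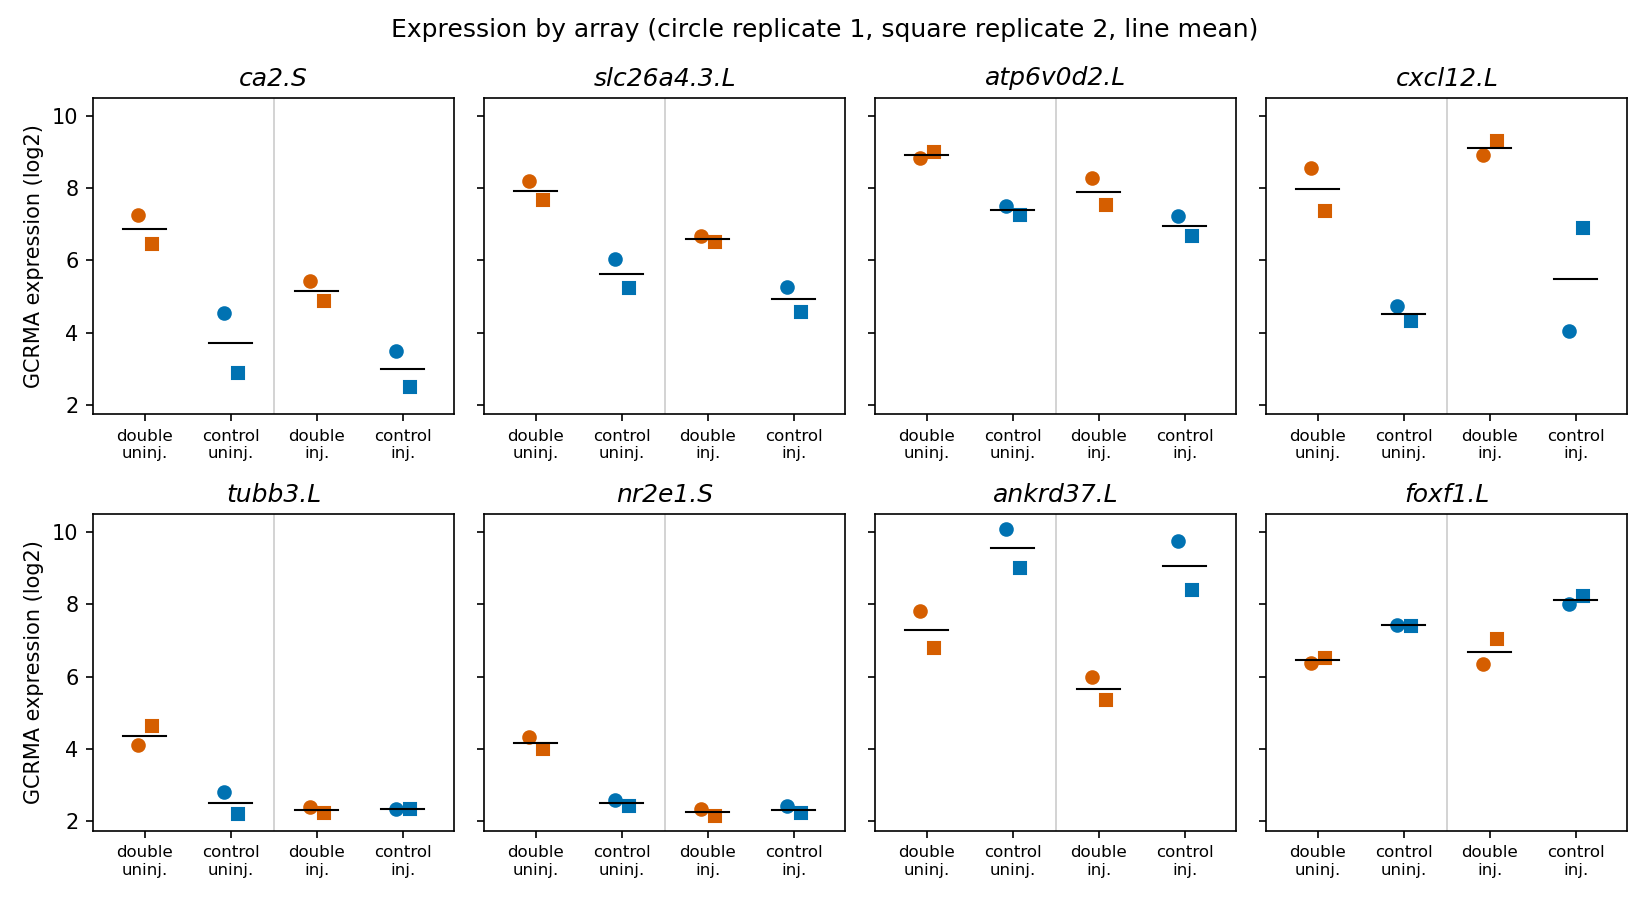
GCRMA expression (log2) of 8 genes on each of the 8 arrays, double before control morphants, uninjected sides left and injected sides right of the grey line. Circles are replicate 1, squares replicate 2 and lines group means. The double arrays of uninjected sides lie above the control arrays in the first 6 genes and below them in ankrd37.L and foxf1.L.

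Among 57 genes of axonemal and ciliary families, 8 were called higher and 0 lower, against 1.42% and 1.05% of all genes. In these families 49 genes were not called, and 47 (82.5%) had a positive difference, against 45.7% of all genes. The median was 0.34, and it was 0.35 in replicate 1 and 0.38 in replicate 2. ak7.S, an adenylate kinase of the axoneme, had 7.26 and 7.12 in double and 6.43 and 6.29 in control morphants (difference 0.83 ± 0.16). tubb4b.S, the beta-tubulin used in cilia, had 11.69 and 11.75 in double and 11.03 and 10.92 in control morphants (difference 0.74 ± 0.17). odf3.L, a microtubule protein of cilia and sperm tails, had 7.74 and 7.51 in double and 6.97 and 6.85 in control morphants (difference 0.71 ± 0.17). These were small differences between arrays that agreed closely within each group, and all passed on z values. The other called genes were morn3.S at 1.26 ± 0.45, nme9.L at 0.78, spef1.S at 0.72, the tubulin polyglutamylase gene ttll1.S at 0.65 and the centrin gene cetn4.L at 0.62, which did not pass on z values. The tektin gene tekt3.S, a structural protein of axonemal microtubules, was not called in spite of a difference of 1.49 ± 0.93. The main fit does not use the replicate number. With it as a block the SE was 0.145 and the local false discovery rate 1.2e-10 (adjusted p 0.101 in limma). The block also lost calls. Over all genes it kept 65 of the 117 called increases and 26 of the 86 called decreases. Among those lost were ca12.L, atp6ap1.1.L and spef1.S, at local false discovery rates of 0.383, 0.367 and 0.205. tekt3.S had 6.19 and 4.44 in double and 4.64 and 2.99 in control morphants, so the double array was higher within each replicate but the groups overlapped. The number of calls was 1 without control replicate 1, 3 without double replicate 1 and 5 without either of the other arrays, and the median over the 57 genes stayed between 0.19 and 0.65.

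**Figure D3:**
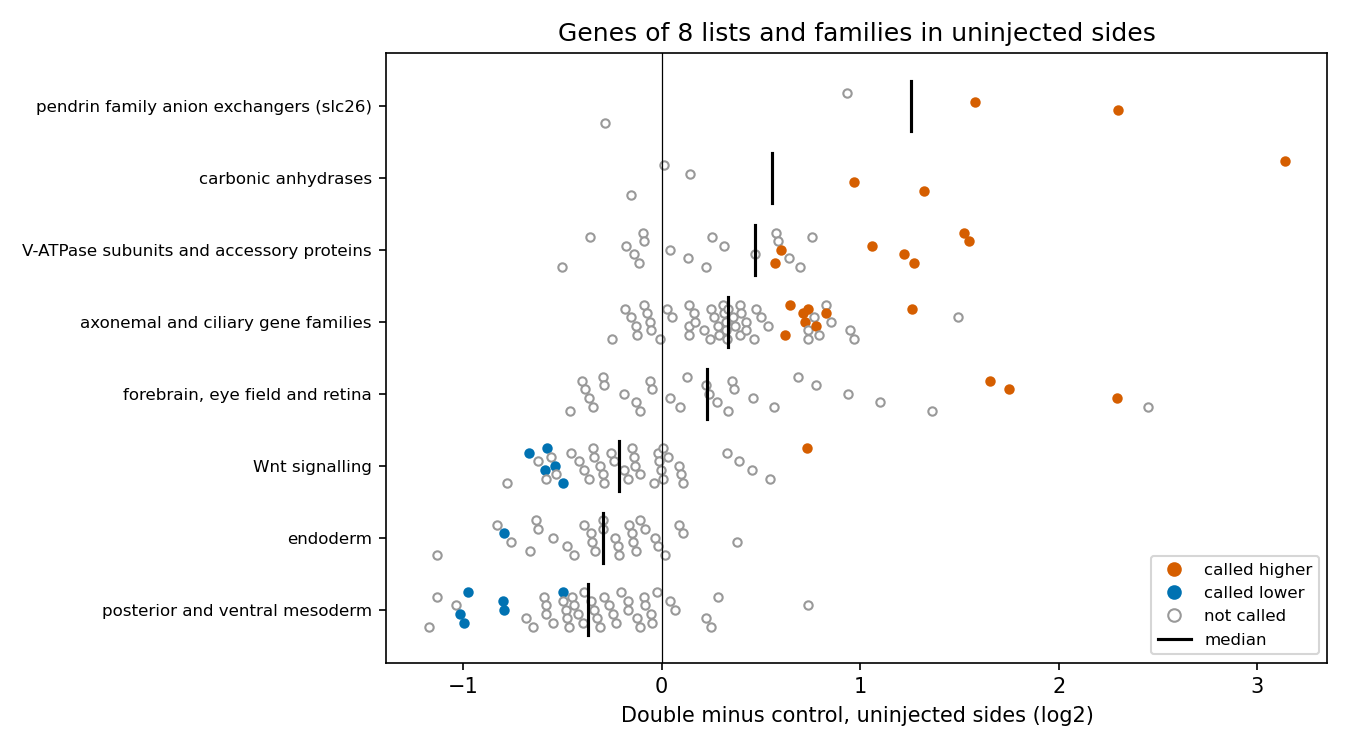
Double minus control difference (log2, x axis) of each tested gene in 8 lists and families, uninjected sides. Filled points are called genes, open points genes not called and bars medians, which run from 1.25 for the slc26 family to -0.37 for posterior and ventral mesoderm.

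Several anterior neural and neuronal genes among the increases were dim. Of these, nr2e1.S, tubb3.L, vsx1.L and mab21l2.S were tested only because they reached the minimum mean in uninjected sides of double morphants. nr2e1.S, the Tailless orphan receptor of forebrain and eye progenitors, had 4.33 and 4.0 in double morphants, against 2.59 and 2.42 in control morphants. The 2 control arrays were near the floor of the scale, which limits what the difference of 1.66 measures. tubb3.L, a beta-tubulin of neurons, had 4.1 and 4.63 in double and 2.82 and 2.22 in control morphants (difference 1.84), and vsx1.L, a homeobox gene of retinal interneurons, had 5.85 and 4.15 in double and 3.05 and 2.36 in control morphants (difference 2.29). The control arrays of these 3 genes lay between 2.22 and 3.05. Of 32 genes of the forebrain, eye field and retina list, 3 were called higher and 0 lower, against 1.42% and 1.05% of all genes. The median was 0.23, and all 3 called genes entered only through uninjected sides of double morphants. The third was mab21l2.S, a gene of eye and midbrain development, with 5.63 and 4.64 in double and 4.15 and 2.62 in control morphants (difference 1.75). Its homeolog mab21l2.L differed by 1.36 and the eye field gene six6.L by 2.45 ± 1.36, both higher in double morphants in each replicate. Neither was called by the main fit, which does not use the replicate number. With it as a block their local false discovery rates were 0.0752 and 0.0498 (adjusted p 0.295 and 0.277 in limma). The main eye field and forebrain regulators did not stand out, with differences of -0.06 and 0.09 for rax.L and rax.S, -0.13 for pax6.L and 0.04 for otx2.L.

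Of 22 midbrain and hindbrain genes, en2.L was called higher and aldh1a2.L and gbx2.1.S were called lower. Over all genes 1.42% were called higher and 1.05% lower, and so few calls are not read as a result about the list. en2.L, the engrailed factor of the midbrain and hindbrain boundary, had 4.67 and 4.91 in double and 3.88 and 2.48 in control morphants (difference 1.61), and it too reached the minimum mean only in the uninjected sides of double morphants. gbx2.1.S, a homeobox gene on the posterior side of that boundary, had 7.72 and 7.79 in double and 8.75 and 8.45 in control morphants (difference -0.85 ± 0.22). The groups were apart in opposite directions in these 2 genes, and neither passed on z values. Among 22 genes of neuronal differentiation, tubb3.L and the neuronal filament gene prph.S (1.38 ± 0.37) were called higher and the LIM homeobox gene lhx1.L lower, and the median moved between the replicates, at -0.01 in replicate 1 and 0.37 in replicate 2. prph.L, the homeolog of prph.S, differed by 0.28.

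The neural crest gave 2 called increases and 1 decrease, gbx2.1.S, among 41 genes, against 1.42% and 1.05% of all genes. So few calls are not read as a result about the list. sox10.L, a regulator of migrating crest cells, had 6.05 and 5.56 in double and 5.07 and 2.15 in control morphants (difference 2.2), and no other group reached the minimum mean. Its difference was 0.99 in replicate 1 and 3.42 in replicate 2, where the control array was at the floor, and it was 3.66 without control replicate 1 and 0.74 without control replicate 2. mycn.S, the Myc gene of neural and crest progenitors, differed by 1.38 ± 0.47. Neural plate genes as a list had 0 of 33 called in either direction and a median of -0.15, with sox2.L at -0.31.

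The largest difference of all was that of cxcl12.L, a chemokine that guides migrating cells. It had 8.55 and 7.38 in double and 4.74 and 4.32 in control morphants, a difference of 3.44 ± 0.91, with both double arrays more than 2 units above both control arrays. Its local false discovery rate on z values was 0.202, just outside the threshold. Of the 16 tested genes of the innate immune list it was the only one called, where 1.42% of all genes were called higher. A single call is not read as a result about the list. 14 of the 16 had a positive difference (87.5%, against 45.7% of all genes), with a median of 0.29 that was 0.28 in each replicate. Among secreted factors, the BMP antagonist nog2.L had 6.85 and 6.12 in double and 5.3 and 4.11 in control morphants (difference 1.78 ± 0.52), and the growth factor gene tgfb2.L differed by 0.74. crisp1.5.S, a cysteine-rich secretory protein gene, had 3.84 and 4.35 in double morphants, while its control arrays at 2.70 and 2.14 were near the floor. Both genes, crisp1.5.S and tgfb2.L, reached the minimum mean only in uninjected sides of double morphants. XB5953580.L and LOC100049756, genes without an annotated role in the files, completed the 12 largest called increases with differences of 1.81 ± 0.53 and 1.64, and LOC100049756 likewise entered only through that group.

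Among 54 epidermal genes, 2 keratins were called, krt19.S (0.89 ± 0.29) and krt12.2.S (0.84 ± 0.31), beside a list median of 0.04. Among 57 DNA replication genes the clamp loader subunits rfc4.L (9.23 and 9.25 in double, 8.21 and 8.46 in control morphants) and rfc5.L (6.71 and 7.17 in double, 6.27 and 5.69 in control morphants) were called higher. Their differences were 0.90 ± 0.18 and 0.96 ± 0.33, and rfc4.L passed on z values. rfc5.S, the homeolog of rfc5.L, differed by -0.095. The list as a whole had a median of -0.10, and 36 of the 57 genes had a negative difference (36.8% positive, against 45.7% of all genes). The 75 cell cycle and mitosis genes included 2 called increases, the kinesin gene kif20b.S (0.74 ± 0.28) and the chromosomal passenger gene incenp.L (0.43 ± 0.17), with a median of 0.007. Beside the 1.42% of all genes called higher, 2 calls in lists of 54, 57 and 75 genes are not read as a result about these lists.

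Among the 86 decreases were 6 genes of the posterior and ventral mesoderm. Of 48 tested genes of that list, 42 had a negative difference, 6 were called lower and 0 higher, and the median was -0.37, against 1.05% called lower and a median of -0.026 over all genes. The median was -0.19 in replicate 1 and -0.47 in replicate 2. foxf1, a forkhead gene of the lateral plate, was called in both homeologs. foxf1.L had 6.38 and 6.53 in double and 7.44 and 7.41 in control morphants (difference -0.97 ± 0.26), and foxf1.S had 4.63 and 4.46 in double and 5.4 and 5.72 in control morphants (difference -1.02 ± 0.29). In both copies the 2 groups were clearly apart. cdx1.S, a caudal gene of the posterior axis, had 7.74 and 7.25 in double and 8.32 and 8.67 in control morphants (difference -1.0 ± 0.25). The others were the kidney gene osr2.S (-0.80 ± 0.21), the LIM homeobox gene lhx1.L (-0.79 ± 0.20) and the ligand gene wnt8a.L (-0.50 ± 0.16). None of the 6 passed on z values. With the replicate number as a block, 3 stayed called, foxf1.L, osr2.S and lhx1.L. The T-box genes tbxt.L and vegt.L differed by -0.45 and -0.44, cdx4.L by -0.42 and tbx6.L by -0.58 without being called, and the largest positive difference was that of szl.S, a secreted regulator of ventral BMP signalling, at 0.74. Without control replicate 1, and likewise without double replicate 2, 0 of the 48 were called, and the median stayed below 0 when any 1 array was left out, between -0.55 and -0.20.

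Wnt signalling genes shared this direction in part. Among 42 genes, 5 were called lower and 1 higher, against 1.05% and 1.42% of all genes, with a median of -0.22. With the replicate number as a block, 0 were called lower and 1 higher. The decreases covered a ligand, wnt8a.L, both homeologs of the receptor fzd10, the planar polarity gene vangl2.L and the nuclear effector tcf7.S. fzd10.S had 9.68 and 9.55 in double and 10.16 and 10.41 in control morphants (difference -0.67 ± 0.19), and fzd10.L had 7.38 and 7.30 in double and 7.80 and 8.06 in control morphants (difference -0.59 ± 0.16). vangl2.L and tcf7.S differed by -0.58 ± 0.16 and -0.54 ± 0.18. The increase was fzd3.L, a receptor of neural tissue, with 8.56 and 8.5 in double and 7.70 and 7.89 in control morphants, and it alone passed on z values (difference 0.73 ± 0.16). vangl2.S, the homeolog of vangl2.L, differed by 0.03, and the other probe set of vangl2.L gave -0.11. The 5 decreases became 0 without control replicate 1, 1 without control replicate 2, 8 without double replicate 1 and 0 without double replicate 2, and the median then lay between -0.23 and -0.06.

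Endodermal genes had a negative difference in 27 of 31 cases and a positive one in 12.9%, against 45.7% of all genes. Their median was -0.30, with 1 call, lhx1.L, and no called increase. sox17a.L differed by -0.30, gata6.S by -0.33, foxa2.L by -0.83 and mixer.S by -1.13, none of them called. Of 58 early embryonic genes whose mRNA fades with time, 2 were called lower, the RNA-binding protein gene celf1.S (-0.55 ± 0.17) and wnt8a.L, and the median of -0.32 came from replicate 2 (-0.47), since that of replicate 1 was 0.006. The other probe set of celf1.S gave -0.03 and the homeolog celf1.L differed by 0.06. Blood, heart and endothelial genes ran the other way without any call, with 16 of 21 positive (76.2%, against 45.7% of all genes). Their median of 0.37 was 0.39 in replicate 1 and 0.08 in replicate 2. Hox and posterior genes had opposite medians in the replicates, -0.30 and 0.19. Notch genes had 1 call among 27, hes5.10.L, a repressor induced by Notch, with 8.30 and 7.87 in double and 9.55 and 8.89 in control morphants (difference -1.13 ± 0.31). Beside 1.05% of all genes called lower, 1 or 2 calls in the endodermal, early embryonic and Notch lists are not read as list results.

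**Figure D4:**
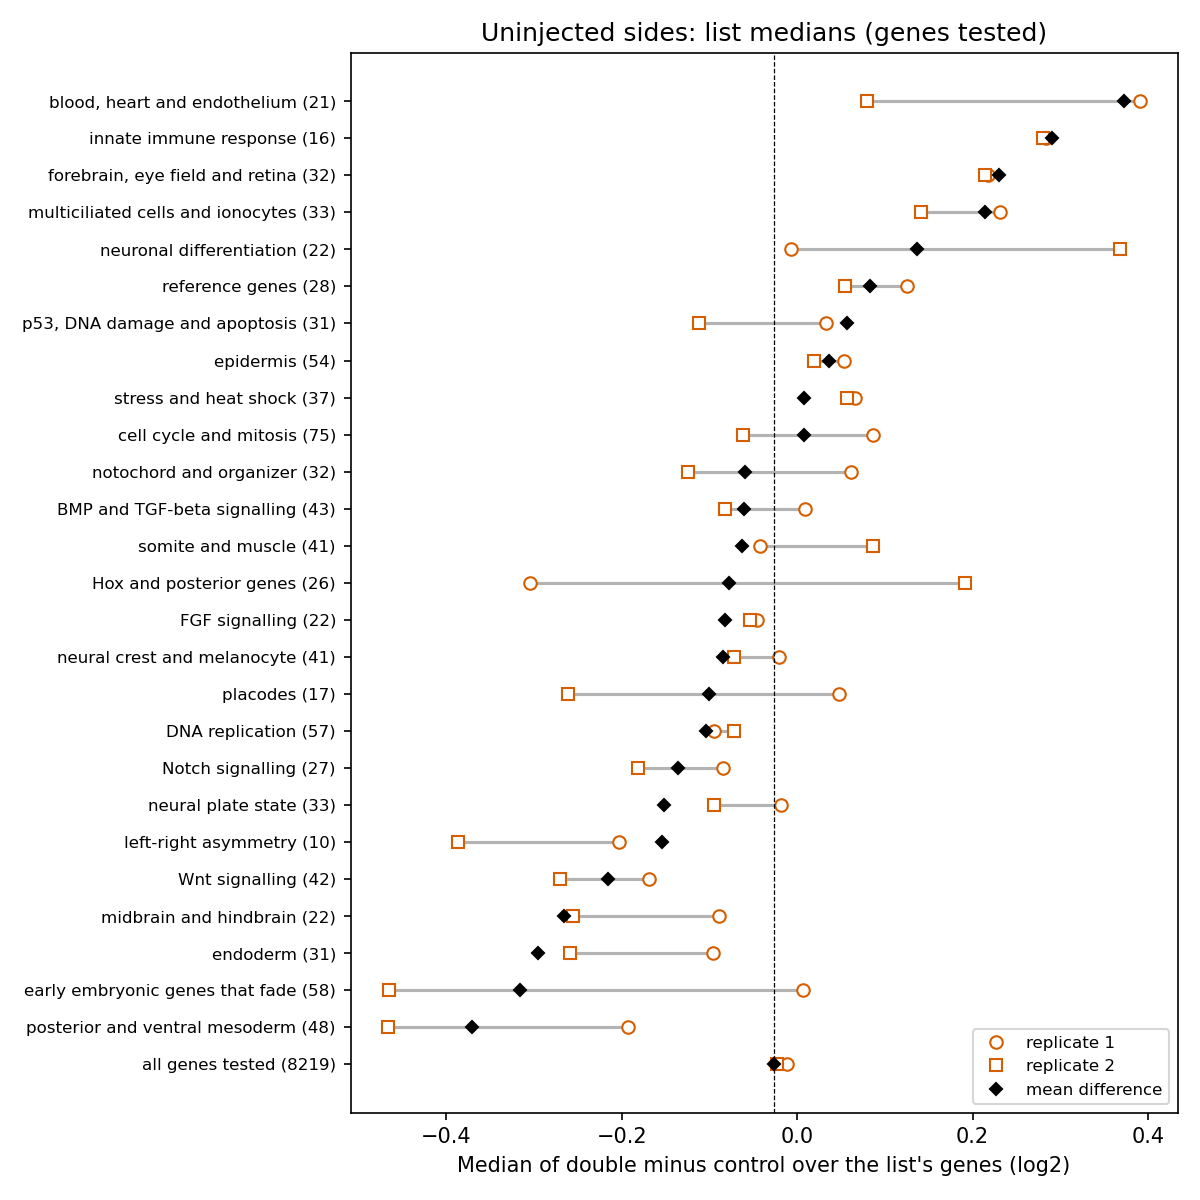
Median double minus control difference (log2, x axis) over the tested genes of each list with at least 10 of them, uninjected sides. Open circles are replicate 1, open squares replicate 2, black diamonds the median of the mean difference, and the dashed line is the median of all genes, -0.026. By the median of the mean difference, posterior and ventral mesoderm lies lowest of these lists. Above the line in both replicates lie innate immune, forebrain, multiciliated cell and ionocyte, blood, neuronal differentiation, epidermis, stress and reference genes.

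The largest single decrease was that of ankrd37.L, an ankyrin repeat gene that responds to low oxygen in mammals. It had 7.82 and 6.78 in double and 10.10 and 9.01 in control morphants, a difference of -2.25 ± 0.62 that was -2.28 in replicate 1 and -2.23 in replicate 2. Lower by over 1 unit in both replicates were 4 genes (0.0487% of all genes), ankrd37.L, hes5.10.L, tdrd12.L and cdin1.L. By as much, 38 genes were higher (0.462%), and the groups did not overlap in 30 of these. The 38 include genes tested only because uninjected sides of double morphants reached the minimum mean, such as nr2e1.S, tubb3.L and vsx1.L. Over all genes, 54 entered only through that group and 15 only through uninjected sides of control morphants, so the 2 counts are not compared. tdrd12.L, a Tudor domain gene of the germline small RNA pathway in mouse, had 3.83 and 3.54 in double and 4.96 and 4.59 in control morphants (difference -1.09 ± 0.23). cdin1.L differed by -1.06 ± 0.24 on the probe set used and by 0.04 on a brighter one, so that its decrease rests on 1 of 2 probe sets. aldh1a2.L, the enzyme that makes retinoic acid, had 10.23 and 10.39 in double and 11.37 and 11.23 in control morphants (difference -0.99 ± 0.19), and its 5 other probe sets ran from -1.23 to 0.32 with 2 of them negative.

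The other large decreases were scattered over functions. dym.L, a gene of Golgi organisation, had 5.33 and 4.03 in double and 6.02 and 6.05 in control morphants (difference -1.36 ± 0.40), and bak1.S, a pro-apoptotic protein of the mitochondrial membrane, had 6.66 and 5.71 in double and 7.19 and 7.39 in control morphants (difference -1.11 ± 0.33). In both, replicate 2 of the double morphants was the lowest array. mcoln1.L, a lysosomal cation channel gene, differed by -1.0 ± 0.21, slc25a26.L, the mitochondrial carrier of S-adenosylmethionine, by -1.01 ± 0.38, and MGC84007, a gene without an annotated role in the files, by -1.01 ± 0.32. tnfrsf10b.L, a death receptor, differed by -0.67 ± 0.20. With bak1.S it made up the 2 decreases among 31 genes of the p53, DNA damage and apoptosis list, which had no called increase and a median of 0.06. With the replicate number as a block, 0 of the 31 were called. Beside 1.05% of all genes called lower and 1.42% higher, 2 calls are not read as a result about the list. The somite gene ripply2.2.S (-0.59 ± 0.19) and ventx3.2.S, a ventral homeobox gene (-0.64 ± 0.22), were the only calls of the muscle list (41 genes) and the placode list (17 genes). Beside the same shares of all genes, 1 call is not read as a result about either list.

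The tested genes of H4K20 methylation and the POU-V genes did not differ by this rule in uninjected sides. None of the 5 H4K20 methylation genes tested was a copy of the Suv4-20h2 gene. kmt5b.S, a copy of the Suv4-20h1 gene, had 8.95 and 9.30 in double and 8.65 and 8.87 in control morphants (difference 0.36 ± 0.19), and kmt5b.L differed by 0.29 ± 0.38. The monomethylase homeologs kmt5a.L and kmt5a.S differed by 0.18 ± 0.27 and -0.33 ± 0.90, and the demethylase gene phf8.L by -0.26 ± 0.28. A morpholino blocks translation, so the mRNA level does not report the knockdown. Among the POU-V genes, regulators of the uncommitted state in the early embryo, pou5f3.2.L had 8.0 and 8.17 in double and 8.06 and 9.20 in control morphants (difference -0.54 ± 0.60), and pou5f3.1.L and pou5f3.3.L, both dim, differed by -0.65 ± 0.59 and 0.18 ± 0.39. The commonly used reference genes gapdh.L, actb.L and odc1.L differed by -0.02 ± 0.36, -0.01 ± 0.18 and -0.19 ± 0.21, with overlapping groups, and gapdh.S by 0.30 ± 0.62. Of 28 tested genes of the reference list 0 were called, but 20 had a positive difference (71.4%, against 45.7% of all genes). In both replicates 14 of them were higher and 1 lower, and the median was 0.08.

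The injected sides of the same pools were then examined for the genes called in uninjected sides. These are other arrays but the same embryos, so they are not independent pools. Both comparisons also use the same SE for a gene, so a gene with a small SE was favoured for a call in both. There, 197 genes were called higher (2.4%) and 262 lower (3.19%) in double than in control morphants. Of the 117 genes higher in uninjected sides, 71 (60.7%) were also higher in both replicates of injected sides, as were 36.5% of all genes, 23 were lower in both, and 27 were called higher there. Of the 86 lower genes, 69 (80.2%) were lower in both replicates of injected sides, as were 38.1% of all genes, and 29 were called lower. cxcl12.L had 8.91 and 9.31 in double and 4.05 and 6.90 in control morphants in injected sides (difference 3.64), and ankrd37.L had 5.98 and 5.37 in double and 9.76 and 8.40 in control morphants (difference -3.40). ca2.S differed by 2.16, slc26a4.3.L by 1.66 and foxf1.L by -1.44 there. In these 5 genes, double and control morphants differed in the same direction on both sides of the embryo, but cxcl12.L and ca2.S were not called in injected sides. List medians there were 0.15 for V-ATPase, 0.08 for axonemal and -0.02 for multiciliated cell and ionocyte genes. They were 0.43 for carbonic anhydrases, 0.95 for the slc26 family and -0.37 for posterior and ventral mesoderm.

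**Figure D5:**
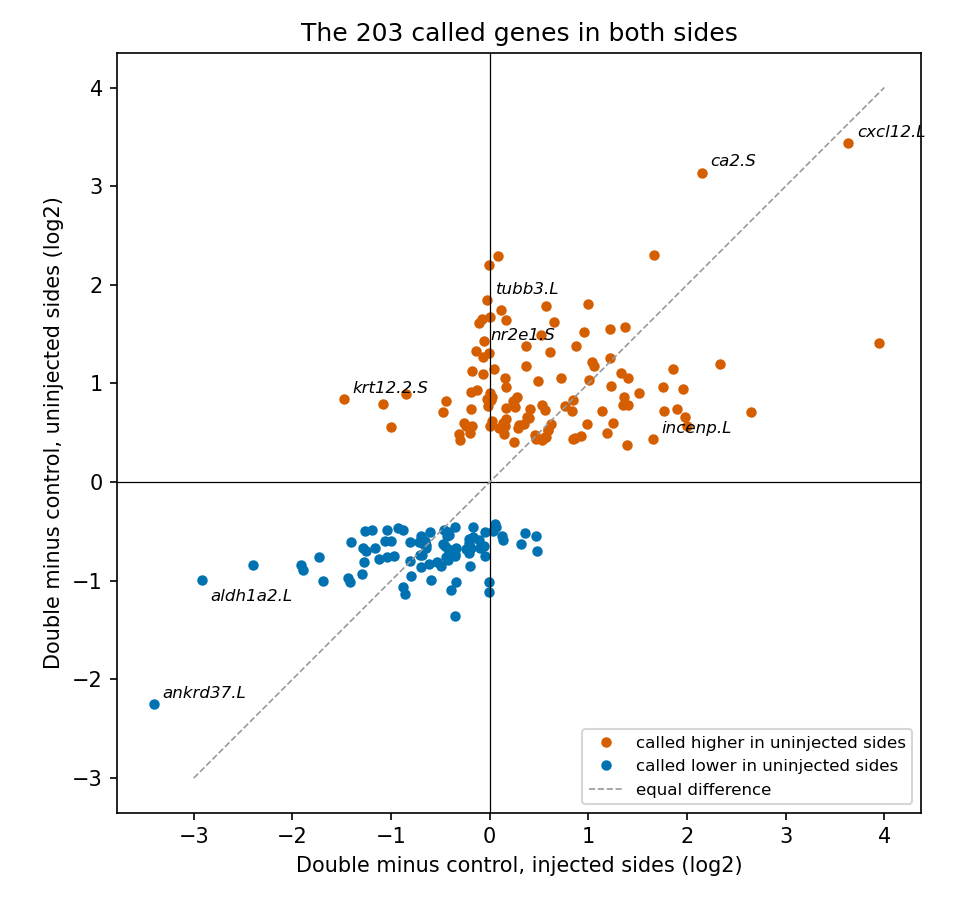
Double minus control difference (log2) of the 203 called genes in uninjected sides (y axis) and injected sides (x axis), with equal differences on the dashed line. cxcl12.L and ankrd37.L lie far from 0 on both axes, while tubb3.L and nr2e1.S lie near 0 on the x axis.

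Other called genes showed no such difference in injected sides. nr2e1.S, tubb3.L and crisp1.5.S lay below 2.5 on all 4 arrays of injected sides, and their differences there were -0.07, -0.03 and -0.002. vsx1.L had 2.90 and 2.42 in double and 2.91 and 2.23 in control morphants on injected sides, and sox10.L lay between 2.14 and 2.15 on all 4 arrays. All 5 reached the minimum mean only in uninjected sides of double morphants, so that a difference between the sides was fixed by how they entered. The keratins krt12.2.S and krt19.S turned direction, with differences of -1.48 and -0.85 in injected sides, and so did odf3.L, with -0.47. The difference between the 2 comparisons, uninjected minus injected, was itself tested in the same model. With the sign reversed, it equals the change from uninjected to injected side in double morphants minus that in control morphants. Uninjected minus injected was called positive for 162 genes (1.97%) and negative for 99 genes (1.2%). No adjusted p was under 0.05 in limma, and 534 genes (6.5%) had an unadjusted p under 0.05. Of the genes called in uninjected sides, this difference was called for 24 of the 117 and 9 of the 86.

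Homeologs offered a second measurement of many called genes. Of 34 genes called higher whose other copy was tested, 24 copies had a positive difference and 4 were called, and the median over the 34 copies was 0.25. The 4 are the copies of ca2 and slc26a4.3, each pair counted once from each copy. Over all genes, 45.7% had a positive difference and 1.42% were called higher. Of 28 genes called lower with a tested copy, 24 copies had a negative difference and 4 were called, with a median of -0.33. These 4 are likewise the copies of foxf1 and fzd10, beside 1.05% of all genes called lower. Homeologs are near-identical and probe sets may read both, so these copies are not fully separate measurements. The 35 other probe sets of genes called higher had the same sign in 27 cases, and the 39 of genes called lower in 32 cases. Called genes lay on both subgenomes, 69 on L and 48 on S chromosomes among the increases and 52 and 34 among the decreases, beside 4830 and 3344 of all genes tested.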

How the data were processed

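The authors hybridised RNA of pooled embryo sides to Affymetrix Xenopus laevis arrays and deposited GCRMA values on a log2 scale for 32635 probe sets and 8 arrays. These log2 values were used as deposited. Probe sets were named through the platform annotation with symbols updated through RefSeq (11228 of 11304 gene identifiers matched). 15505 had 1 gene, 279 several and 16851 none listed, and 10 array control probe sets were left out. Probe sets had to vary and to reach a mean of 4 in at least 1 group, in place of the present calls of the study's methods, which need probe-level data not used here. The probe set with the highest variance stood for each gene, which left 8219 genes.

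A model of the 4 group means over all 8 arrays was fitted in limma 3.58.1 (R 4.3.3), with 4 residual degrees of freedom. Benjamini-Hochberg adjusted p and a local false discovery rate with an empirical null, rewritten after locfdr on the moderated statistic, were computed over all genes, with calls under 0.2. On simulated arrays of this design the fit recovered the differences set, but most calls on the moderated statistic fell on genes without one, and few did on z values. These shares depend on the number and size of the differences set. The simulated noise was independent between arrays, so it did not hold the likeness of arrays with the same replicate number. Errors are SE of the model. The study's methods give independent experiments as replicates, and the number of arrays, 2 a group, limits the precision.

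Named are the 12 largest called increases and the 12 largest called decreases, every called member of the lists, all POU-V and H4K20 methylation genes and 4 reference genes. Other genes were named after their values were seen. Members and lists were chosen with earlier results of these data known. The alternatives changed the block, the arrays fitted, the null, the threshold, the filter, the probe set and the normalization, and left out each array.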

Additional observations from a re-analysis of the deposited data

Results flagged for a closer look

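For 8 of the genes named by rule the double minus control difference itself differed between uninjected and injected sides. This was at a local false discovery rate under 0.2, with an adjusted p of 0.574 in limma for each of them. On z values 0 genes passed for this difference. Genes named only as members of the families chosen after values had been seen are not counted in the 8. The values below are the difference in uninjected sides minus that in injected sides (log2, 2 arrays a group). With the sign reversed, they equal the change from uninjected to injected side in double morphants minus that in control morphants. The neural genes nr2e1.S (1.73 ± 0.28) and tubb3.L (1.87 ± 0.39) and the secreted protein gene crisp1.5.S (1.68 ± 0.37) reached the minimum mean only in uninjected sides of double morphants. They lay near the floor of the scale in both groups of injected sides, so that their difference between the sides was fixed by how they entered the test. Their SE pools all 8 arrays, those near the floor included (crisp1.5.S at 2.14 on all 4 injected arrays). For these genes the SE and the local false discovery rate are a description only. The keratins krt12.2.S (2.32 ± 0.44) and krt19.S (1.74 ± 0.41) were higher in uninjected and lower in injected sides of double than of control morphants, and the ciliary tubulin tubb4b.S gave 0.932 ± 0.23. aldh1a2.L gave 1.93 ± 0.27, being lower by 0.99 in uninjected and by 2.92 in injected sides. The chromosomal passenger gene incenp.L gave -1.22 ± 0.23, with an increase of 0.43 in uninjected and 1.66 in injected sides. Among the family members, odf3.L (1.18 ± 0.24) and atp6v1g3.L (0.91 ± 0.29) also fell under 0.2, with adjusted p of 0.574 and 0.710 in limma. odf3.L was higher by 0.71 in uninjected and lower by 0.47 in injected sides, and atp6v1g3.L higher by 1.06 and 0.15.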

How the results depend on the processing

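The counts given as called in uninjected sides were 117 higher and 86 lower. With the replicate number as a block they were 122 and 47, with 91 of the 203 genes shared. In that limma fit 13 higher and 4 lower genes had an adjusted p under 0.2 (nr2e1.S, slc26a4.3.L, ankrd37.L and ca2.S lowest, at 0.0757). nr2e1.S was tested only because uninjected sides of double morphants reached the minimum mean, so its adjusted p is a description and no support. The block gave 0 Wnt decreases in place of 5, 3 posterior and ventral mesoderm decreases in place of 6, 12 axonemal increases in place of 8 and 6 forebrain increases in place of 3. All 3 forebrain increases of the main fit entered only through uninjected sides of double morphants. Fitting only the 4 uninjected arrays gave 1 Wnt decrease. The labels do not say that a replicate number marks a shared batch, although same-numbered double and control uninjected arrays deviated together from the mean of their group (r = 0.69 across genes), and with 2 pairs this is a hint only. Lower calls numbered 52 with only the 4 uninjected arrays, 43 with the embryo pool as a random block (83 higher) and 24 with only those arrays and the replicate block (187 higher). The theoretical null gave 32 and 31, z values 25 and 0, an adjusted p under 0.05 or under 0.2 gave 0 and 0, and no filter 362 and 356. Leaving out each array gave 37 to 92 higher and 1 to 315 lower genes, the extremes being without control replicate 1 (37 and 1) and without double replicate 1 (69 and 315). The share of higher calls was 57.6%, and 63.6% or 64.6% after quantile normalization or median centring. Genes over 1 log2 unit in both replicates were 38 and 4, and 24 and 2 with a mean of at least 6; leaving out an array gives no such value. For the difference between sides, called for 162 and 99 genes, the counts were 34 and 26 with the replicate block, 78 and 54 with the random block, 0 and 0 on z values or by adjusted p, 620 and 563 with no filter, 60 negative with a trended prior, and 61 to 205 and 18 to 151 with an array left out. With the brightest probe set aldh1a2.L gave 0.0102 and cdin1.L 0.0361, which turned their direction, and cdin1.L gave 0.0361 with a mean of at least 6 as well. Over all named genes and alternatives, the side of the threshold was kept 845 times and a call was lost 373 times. The first count includes POU-V, H4K20 methylation and reference genes, which the main fit did not call and which could not lose a call. kmt5b.S gained one. The cause of these changes was not tested.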

Other observations

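A few genes set 1 pool of embryos apart in both of its sides, which was noticed in the values and is given without a test. cul5.L, a scaffold of ubiquitin ligases, lay at 8.63 in the uninjected and 8.85 in the injected side of double replicate 2 and between 2.42 and 3.06 on the other 6 arrays. capn9.L, a calpain protease gene, lay at 5.75 and 6.65 in the same pool and between 2.21 and 2.93 elsewhere. gng7.S, a G protein subunit gene, lay at 6.38 and 6.31 in control replicate 2 and between 2.88 and 3.17 elsewhere. These 3 genes are the only ones in which both arrays of 1 pool lay over 2 log2 units from all other arrays, and none of them was called in uninjected sides.

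Outside the lists, called increases included the somatostatin gene sst.1.L (1.49 ± 0.57) and the opioid precursor gene penk.L (1.31), both neuropeptide genes, and the estrogen receptor gene esr1.S (1.43), of which penk.L and esr1.S reached the minimum mean only in uninjected sides of double morphants. The zona pellucida gene zpd.L differed by 1.2 ± 0.41 in uninjected and 2.33 in injected sides, and rilp.S, a regulator of lysosome transport, by 1.41 ± 0.55 and 3.94. Called decreases included the Wnt-responsive factor gene sp5.L (-0.63 ± 0.16), with 9.71 and 9.69 in double and 10.30 and 10.37 in control morphants.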
